A study of Mus musculus with 8 samples.

Results

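The genes of complement were examined in hepatocytes of adult mice from which *Gata4* had been excised. The set was a list of 32 gene symbols that covers the lectin, classical, alternative and terminal branches of complement with their regulators and receptors (*Hc* is complement component C5, and *C1s* is annotated as *C1s1*). A gene was measured when a probe annotated to it exceeded the negative control beads, with a detection p of at most 0.05, in 1 or more of the 8 arrays. This held for 22 of the 32 genes, among 14850 features tested in all. Gene names were at hand only for probes that are also in the authors' value table (16820 of 45281 on the array), and 5210 of the features tested carry no name. No named probe belonged to *Colec10*, *C1ra*, *C3*, *Cfd*, *C7*, *C8g*, *Cd46*, *Clu*, *C3ar1* or *C5ar1*, so these 10 genes, the central component C3 and the anaphylatoxin receptors included, were not analysed here, which does not say that the array lacks probes for them. All 8 samples came from mice of the strain CD1 x 129S1/SvImJ, 2 to 3 months old, whose *Gata4* alleles were both floxed (GATA4 fl/fl). For 4 samples the mice had been given AAV8-Tbg-Cre by vein (AAV-Cre, labelled GATA4 depleted) and for 4 AAV8-Tbg-GFP (AAV-GFP, the control), in both cases 2 weeks before RNA was harvested. Control mice thus carried the same floxed alleles and the same kind of virus. The Tbg promoter confines the recombinase to hepatocytes, and the other cells of the liver keep *Gata4*. Hepatocytes were prepared by enzyme perfusion of the liver and a Percoll spin, which enriches them but can leave other cells. Nothing in the labels ties the samples to separate mice, and p-values therefore measure the spread between samples, which may be technical.

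Complement is a set of plasma proteins, most of them made by hepatocytes, that mark microbes and damaged cells and then attack them. In the lectin pathway, mannose-binding lectins, collectins and ficolins recognise sugars on a surface and carry the proteases of the MASP family. In the classical pathway, C1q bound to antibody carries the proteases C1r and C1s. Both routes cleave C4 and C2 to form an enzyme that cleaves C3, factor B amplifies that cleavage in the alternative pathway, and components C5 to C9 build a pore in the target membrane. Soluble and membrane-bound regulators restrain each step. Many of these genes are also acute phase genes, which the liver adjusts in inflammation.

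Between 14788 and 16387 probes were detected per array, and the highest signal of an array lay between 70406 and 71285. Precision is limited by the number of arrays. The *Gata4* probe was near background, detected in 0 of 4 AAV-GFP arrays and 1 of 4 AAV-Cre arrays, and its log2 signal was higher in AAV-Cre (5.72 to 6.28) than in AAV-GFP (5.02 to 5.37), against the direction of the label (difference 0.72, unadjusted p = 0.00164, limma adjusted p = 0.535). Whether it lies in the excised part is not known here, and it does not check the labels. Of 12 hepatocyte markers 8 were measured, with a median log2 difference of -0.14 between the groups, and the hepatocyte regulator *Hnf4a* differed by -0.07. *Xist*, the transcript that silences an X chromosome, set 2 control arrays apart, reading 13.33 in AAV-GFP replicate 1, 13.78 in replicate 4 of that group and 5.07 to 5.33 (log2) in the other 6. Of the Y-linked transcripts, *Uty* was lowest in the same arrays (6.08 and 5.93, against 7.09 to 7.56 in the other 6), and *Kdm5d* was low in them (5.47 and 5.42) and also in AAV-Cre replicates 3 and 4 (5.96 and 5.37, against 7.75 to 8.34 in the other 4). Sex is not labelled. AAV-Cre replicates 3 and 4 had the fewest detected probes.

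Setting AAV-Cre against AAV-GFP addresses which complement transcripts differ when hepatocytes lose GATA4. Differences are on the log2 scale, AAV-Cre minus AAV-GFP, and p-values come from limma with Benjamini-Hochberg adjustment over all 14850 features, at a threshold of 0.25. None of the 22 measured genes passed (0 of 22, against 0.00673% of all features). At an unadjusted p under 0.05 only *Mbl2* passed, 1 gene lower and 0 higher in AAV-Cre, where 4.07% of all features were lower and 4.99% higher. That is 1 of 22 against a background of 9.06%, so the share among the members was below that among all features. *Mbl2* was also the only member with no overlap between the groups (1 of 22, against 4.81% of all features, 1.70% lower and 3.10% higher in AAV-Cre). The mean was higher in AAV-Cre for 13 members and lower for 9 (*Cd55*, near background, among them), and it was lower for 43.4% of all features. The median difference was 0.08 over the members and 0.04 over all features, and the median size of a difference was 0.22 and 0.19. The plot of differences by pathway branch shows *Mbl2* apart from the rest, and wide intervals for *C6* and *Cfb*.

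**Figure D1:**
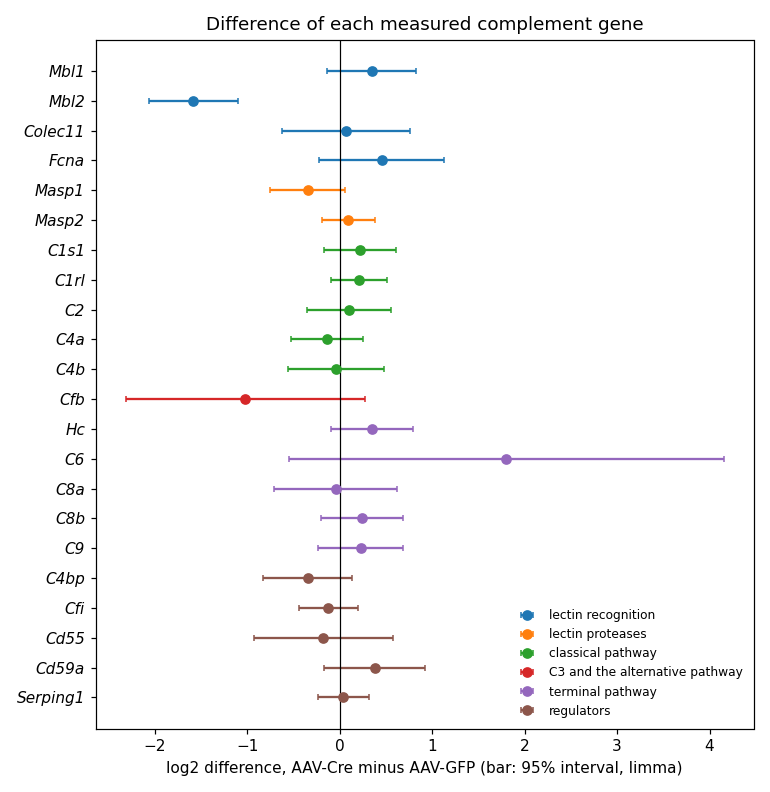
Log2 difference, AAV-Cre minus AAV-GFP, of the 22 measured complement genes, coloured by branch; points are differences of means (4 arrays each) and bars the 95% interval from limma. *Mbl2* (-1.59) has an interval that ends below 0, and those of *C6* (-0.55 to 4.15) and *Cfb* (-2.32 to 0.27) are the widest.

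*Mbl2*, which encodes mannose-binding lectin C, a secreted protein that starts the lectin pathway, was lower in AAV-Cre than in AAV-GFP in every array. The normalized log2 signal was 15.43, 15.07, 15.32 and 15.36 across AAV-GFP replicates 1 to 4, against 14.31, 13.65, 13.37 and 13.51 across the AAV-Cre replicates. All 4 AAV-Cre arrays thus lay below all 4 AAV-GFP arrays, with AAV-Cre replicate 1 closest to the controls. The same separation was present in the deposited signal, which ran from 36348 to 51389 in AAV-GFP and from 9933 to 19345 in AAV-Cre. The mean log2 signal was 15.29 ± 0.16 against 13.71 ± 0.42 (SD, n = 4 per group), a difference of -1.59 ± 0.21 (SE, 95% interval -2.07 to -1.11), which is a 3.01-fold higher level in AAV-GFP. The limma p was 4.22e-05 before and 0.313 after adjustment, so the gene did not pass at 0.25. An exact permutation test over the 8 arrays gave a two-sided p of 0.0286, the smallest that 70 splits of 4 against 4 can give. Groups that do not overlap always give this value, so it restates the separation and adds no support. *Mbl2* did pass in 9 of 21 alternative analyses, and its adjusted p over the 21 ran from 0.0208, on leaving out AAV-Cre replicate 1, to 1.00, on leaving out AAV-Cre replicates 3 and 4. It passed in the authors' normalized values (-1.56, adjusted p = 0.0772). The direction was the same in all 21, from -1.78 to -1.31. Without AAV-GFP replicates 1 and 4, the arrays with *Xist*, the difference was -1.49. In RNA of a whole cell preparation, fewer cells of a type and less RNA per cell cannot be told apart.

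*Mbl1*, which encodes mannose-binding lectin A, the other mouse member of this family, did not share that difference. Its log2 signal was 14.41, 13.68, 13.37 and 13.78 across AAV-GFP replicates 1 to 4, against 14.21, 14.21, 14.02 and 14.18 across the AAV-Cre replicates. The AAV-Cre arrays were tight and lay above AAV-GFP replicates 2 to 4 and below replicate 1. The difference was 0.34 (95% interval -0.14 to 0.82, limma adjusted p = 0.568). It was 0.20 without AAV-GFP replicate 3, 0.55 without AAV-GFP replicate 1 and 0.63 without AAV-GFP replicates 1 and 4, with an unadjusted p of 0.00694 in the latter and no pass after adjustment (limma adjusted p = 0.811). To ask whether the paired lectin genes differed in their response, the log2 signal of *Mbl1* was subtracted from that of *Mbl2* within each array. The result was 1.03, 1.38, 1.94 and 1.58 across AAV-GFP replicates 1 to 4, against 0.10, -0.56, -0.65 and -0.67 across the AAV-Cre replicates. The groups did not overlap, and the change of -1.93 had an exact two-sided permutation p of 0.0286, again the smallest possible. The genes were compared because earlier results of these data had shown *Mbl2* to stand out, so this p is a measure of the separation and not an independent finding.

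Since the deleted factor binds DNA at GATA motifs, the promoter windows of *Mbl2* and *Mbl1* are shown, 5′ to 3′, from 250 bases before to 50 after the start site (RefSeq, GRCm38.p6), together with that of *C6*, the member with the most variable signal. The motif searched was any of the words AGATAA, or AGATAG, or TGATAA, or TGATAG, on either strand, and matches are in capitals. The capitals below, TTATCT, read AGATAA on the opposite strand. *Mbl2* lies at chr19:30232906-30239687 and its window at chr19:30232678-30232977, *Mbl1* lies at chr14:41151456-41163904 and its window at chr14:41151206-41151505, and *C6* lies at chr15:4727067-4804045 and its window at chr15:4726960-4727259, all on the plus strand. Motif positions count from the start site of each window, which lies 22 bases inside the annotated gene for *Mbl2*, 143 bases inside it for *C6* and at its first base for *Mbl1*.
Mbl2: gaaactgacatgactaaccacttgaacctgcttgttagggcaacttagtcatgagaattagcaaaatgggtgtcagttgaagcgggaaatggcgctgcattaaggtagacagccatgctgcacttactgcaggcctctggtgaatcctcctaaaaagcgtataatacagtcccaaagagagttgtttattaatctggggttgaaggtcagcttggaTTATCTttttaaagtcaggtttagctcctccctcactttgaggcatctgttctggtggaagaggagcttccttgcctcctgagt
Mbl1: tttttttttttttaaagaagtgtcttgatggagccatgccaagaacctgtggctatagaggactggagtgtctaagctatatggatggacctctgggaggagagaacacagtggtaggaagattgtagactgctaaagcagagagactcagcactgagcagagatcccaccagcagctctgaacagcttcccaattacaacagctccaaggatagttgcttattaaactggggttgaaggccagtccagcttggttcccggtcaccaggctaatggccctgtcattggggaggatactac
C6: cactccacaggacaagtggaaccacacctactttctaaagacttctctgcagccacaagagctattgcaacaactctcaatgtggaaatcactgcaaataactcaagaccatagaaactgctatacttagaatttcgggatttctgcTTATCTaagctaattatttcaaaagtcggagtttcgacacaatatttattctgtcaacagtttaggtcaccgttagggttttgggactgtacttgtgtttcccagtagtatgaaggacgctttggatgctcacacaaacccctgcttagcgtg

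The *Mbl2* window held 1 motif, whose first base lies at -34 from the start site, and the *Mbl1* window held 0. The 2 windows shared a longest identical run of 13 bases, ctggggttgaagg, just before the *Mbl2* motif. The *C6* window held 1 motif, at -103 from its start site, which is within the annotated span of the gene. A promoter window was given for 15 of the 22 measured genes, and 6 of them (*Mbl2*, *C6*, *C1rl*, *Colec11*, *Hc* and *Masp2*) held a motif, where 29.8% of all 32851 windows did. The start site of the window lies 7094 bases inside the annotated gene for *Hc* and 7922 bases inside it for *Masp2*. The motifs of these 2 genes are therefore not at the 5′ edge of the gene. A match describes these letters only, and whether GATA4 binds there was not examined.

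The other recognition molecules of the lectin pathway lay lower on the signal scale. *Colec11*, a collectin that binds sugars on microbes, had log2 signals from 7.71 to 8.60 in AAV-GFP and from 7.73 to 9.01 in AAV-Cre, and its difference of 0.06 turned negative after cyclic loess normalization (-0.07) and after scaling to the 75th percentile (-0.02). *Fcna*, ficolin A, which in mice is made largely by macrophages, had 9.18, 9.16, 9.39 and 10.02 across AAV-GFP replicates 1 to 4, against 10.13, 9.08, 10.09 and 10.25 across the AAV-Cre replicates. In AAV-Cre, 3 arrays were above every control and replicate 2 was below all of them. The difference was 0.45 (limma adjusted p = 0.590), and 0.72 without AAV-Cre replicate 2 (unadjusted p = 0.0135, limma adjusted p = 0.347), but 0.17 without AAV-Cre replicates 3 and 4. Of 14 markers of Kupffer cells and macrophages 12 were measured, with a median difference of 0.49 and 10 higher. Their summed signal ran from 1680 to 2760 in AAV-GFP and from 2065 to 4906 in AAV-Cre, and *Cd68* and *Cd5l* were not measured. These markers were highest in AAV-Cre replicate 2 (median deviation 0.81 from the gene means), the array in which *Fcna* was lowest. Markers of sinusoidal endothelial cells were also higher, 11 of 11 measured, with a median difference of 0.45 and a summed signal of 5138 to 11113 in AAV-GFP and 7580 to 11150 in AAV-Cre. Stellate cell markers (6 of 10 measured) had a median difference of 0.27. Of 8 cholangiocyte markers 2 were measured, with a median of 0.69. These were *Sox9* (1.19) and *Muc1* (0.20), the latter near background and detected in 1 array of each group. The part of these cell types in the *Fcna* values was not tested.

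*Masp1* encodes the protease that is activated first on a bound lectin, and also a second protein by alternative splicing. The log2 signal of its brightest probe was 13.27, 13.60, 13.69 and 13.94 across AAV-GFP replicates 1 to 4, against 13.03, 13.58, 13.24 and 13.27 across the AAV-Cre replicates. The groups overlapped through AAV-GFP replicate 1 and AAV-Cre replicate 2, and the difference was -0.35 (95% interval -0.76 to 0.06, limma adjusted p = 0.536). A dim *Masp1* probe, detected in 3 of 4 AAV-Cre arrays, was lower in all 4 of them, at 7.35, 6.97, 7.38 and 7.80 in AAV-GFP against 6.62, 6.78, 6.20 and 6.85 in AAV-Cre, a difference of -0.76 with an unadjusted p of 0.00610 and a limma adjusted p of 0.518 when every probe was tested. The remaining *Masp1* probe differed by -0.18. *Masp2*, the protease that cleaves C4 and C2 in this pathway, had 4 probes with differences from -0.26 to 0.17. On its brightest probe the signal ran from 14.61 to 14.99 in AAV-GFP and from 14.75 to 14.93 in AAV-Cre, a difference of 0.09 (95% interval -0.20 to 0.38). The plot of lectin pathway members shows the values of each array.

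**Figure D2:**
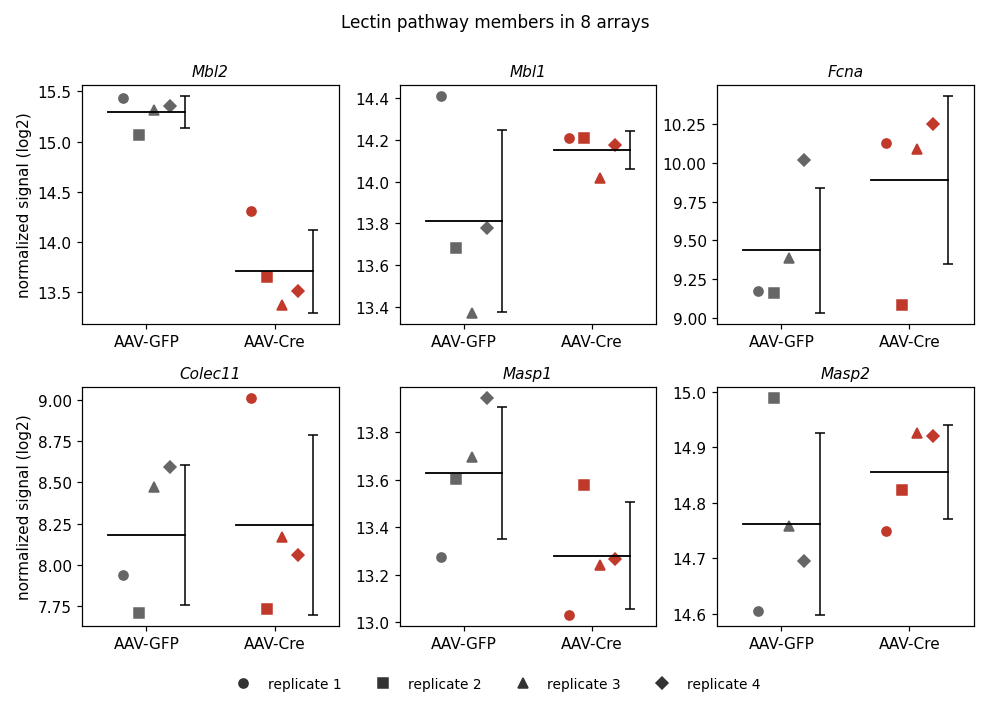
Normalized log2 signal of 6 lectin pathway genes in the 4 AAV-GFP (grey) and 4 AAV-Cre (red) arrays, with 1 symbol per replicate number, lines at the group means and bars of 1 SD; each panel has its own vertical scale. Only in *Mbl2* do the groups not overlap (lowest AAV-GFP array 15.07, highest AAV-Cre array 14.31).

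In the classical pathway 5 of 6 genes were measured and their differences were small. *C1s1*, the protease that cleaves C4 and C2 once C1q has bound, ran from 11.91 to 12.38 in AAV-GFP and from 12.02 to 12.65 in AAV-Cre, a difference of 0.22. *C1rl*, a relative of C1r, ran from 12.18 to 12.55 and from 12.47 to 12.74, a difference of 0.21 (95% interval -0.09 to 0.51). *C2*, which supplies the catalytic part of the enzyme that cleaves C3, had 13.23 to 14.13 and 13.62 to 13.93, and its difference of 0.10 was -0.18 without AAV-GFP replicates 1 and 4. No member of this branch passed at an unadjusted p under 0.05.

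*C4a* and *C4b* encode close relatives of complement C4 that lie near each other on chromosome 17, and how far their probes tell the transcripts apart is not known here. *C4b* had a log2 signal of 14.91, 15.14, 15.10 and 15.20 across AAV-GFP replicates 1 to 4, against 14.64, 15.71, 14.80 and 15.04 across the AAV-Cre replicates. The AAV-Cre arrays spread on both sides of the controls, with replicate 2 above all of them. The difference was -0.04 on this probe, and 0.19 and 0.36 on the other 2 probes of the gene. *C4a* had 15.63, 15.79, 15.79 and 15.74 in AAV-GFP and 15.27, 16.04, 15.49 and 15.58 in AAV-Cre, a difference of -0.14, and another bright probe differed by -0.36. Again AAV-Cre replicate 2 was the highest array and the other 3 were below every control. Its deposited signal there, 67751, was close to the highest of the array, 70829. *Cfi*, *C9* and *Serping1* read 67519, 67031 and 66459 in the same array, and how far such bright probes lose range was not tested.

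*Cfb* encodes factor B, the protease of the alternative pathway, and was the only member of that branch measured. Its log2 signal was 12.36, 12.02, 12.23 and 12.22 across AAV-GFP replicates 1 to 4, against 12.09, 12.58, 9.91 and 10.16 across the AAV-Cre replicates. AAV-Cre replicates 1 and 2 were within or above the range of the controls, and replicates 3 and 4 lay far below all other arrays. In the deposited signal these 2 arrays read 1141 and 1134, where the other 6 ran from 4422 to 6721. The mean difference was -1.02 ± 0.57 (SE, 95% interval -2.32 to 0.27, limma adjusted p = 0.551), and 0.13 without AAV-Cre replicates 3 and 4. The SD was 0.14 in AAV-GFP and 1.35 in AAV-Cre. The spread in AAV-Cre exceeded that of 99.1% of all features. *C2* is the next gene on chromosome 17 (*Cfb* at chr17:34856374-34862514, *C2* at chr17:34862602-34882100), and in AAV-Cre replicates 3 and 4 it read 13.64 and 13.93, within the range of the other arrays.

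The terminal pathway held the member with the largest mean difference, *C6*, and its values followed single arrays rather than the groups. *C6* encodes a component of the membrane pore. Its log2 signal was 10.02, 13.81, 14.34 and 9.67 across AAV-GFP replicates 1 to 4, against 13.41, 14.33, 13.78 and 13.52 across the AAV-Cre replicates. AAV-GFP replicates 1 and 4, the arrays with *Xist*, were far below the other 6, and AAV-GFP replicates 2 and 3 lay inside or above the AAV-Cre range. The deposited signal was 1603 and 1147 in those 2 arrays and between 10016 and 22279 in the rest. A dimmer *C6* probe had the same order, with 8.56 and 8.20 in AAV-GFP replicates 1 and 4 against 11.72 to 12.94 in the other arrays. The group difference was 1.80 ± 1.04 (SE, 95% interval -0.55 to 4.15, limma adjusted p = 0.555), while leaving out AAV-GFP replicates 1 and 4 turned it to -0.31. The SD of 2.45 in AAV-GFP exceeded that of 99.8% of all features.

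Of the other terminal components, *Hc*, complement C5, had 13.89, 14.14, 14.16 and 14.12 across AAV-GFP replicates 1 to 4, against 14.28, 14.98, 14.10 and 14.32 across the AAV-Cre replicates. In AAV-Cre 3 arrays were above every control and replicate 3 lay within the control range, and the difference was 0.34 (95% interval -0.10 to 0.79, limma adjusted p = 0.552). Leaving out AAV-Cre replicate 2 gave 0.16, and leaving out replicates 3 and 4 of that group gave 0.55. *C8a* and *C8b*, neighbours on chromosome 4 that encode chains of C8, differed by -0.05 and 0.23. *C8a* read 12.56 and 12.46 in AAV-Cre replicates 3 and 4, below the other 6 arrays (12.69 to 13.56), and its difference was 0.47 without them. *C9*, the protein that completes the pore, had 14.99 to 15.78 in AAV-GFP and 15.48 to 16.02 in AAV-Cre on its brightest probe, a difference of 0.22, and -0.25 and 0.07 on the other 2 probes. Its brightest probe came near the top of the signal range, where a difference may be compressed.

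**Figure D3:**
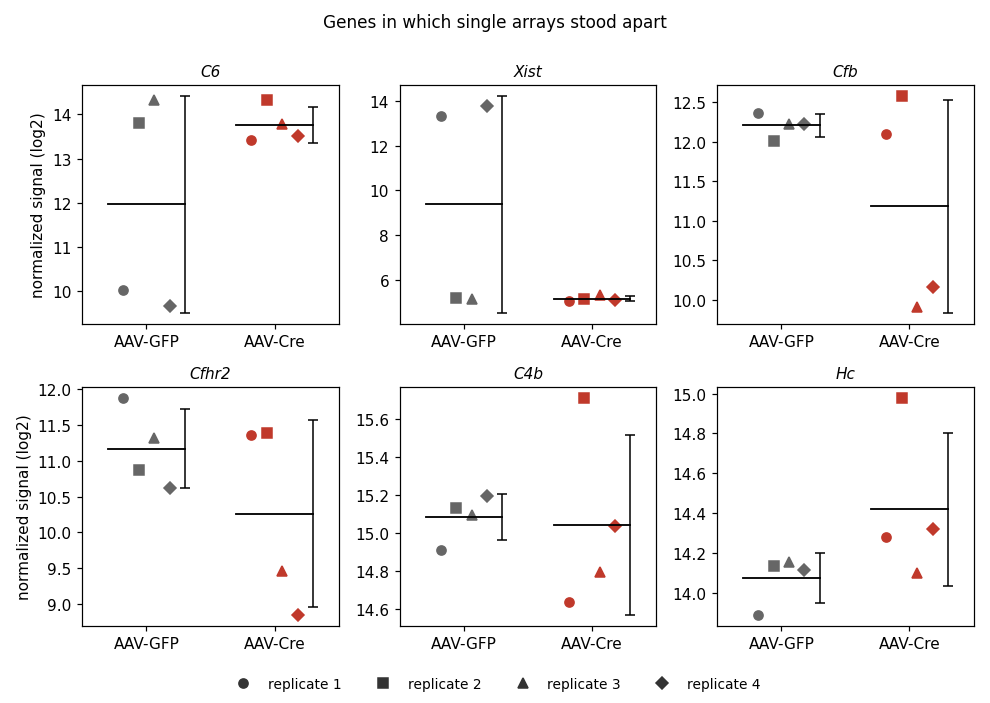
Normalized log2 signal of 5 complement genes and of *Xist* in each array (grey AAV-GFP, red AAV-Cre, 1 symbol per replicate number, lines at group means, bars of 1 SD, own scale per panel). *C6* is low in the 2 arrays where *Xist* is high (10.02 and 9.67), *Cfb* and *Cfhr2* are low in AAV-Cre replicates 3 and 4, and *C4b* and *Hc* are highest in AAV-Cre replicate 2.

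Among the regulators 5 of 7 were measured. *C4bp*, which encodes the C4b-binding protein that takes apart the classical enzyme, was tight in AAV-GFP, at 14.40, 14.48, 14.39 and 14.36, and read 14.04, 14.70, 13.76 and 13.73 in AAV-Cre replicates 1 to 4. In AAV-Cre 3 arrays were below every control and replicate 2 was above all of them. The difference was -0.35 (limma adjusted p = 0.567). It was -0.57 without AAV-Cre replicate 2 (unadjusted p = 0.00342, limma adjusted p = 0.347). Leaving out replicates 3 and 4 of that group gave -0.04. *Cfi*, factor I, which cleaves C3b and C4b, differed by -0.12, and *Serping1*, the C1 inhibitor, by 0.04 (95% interval -0.24 to 0.32). The probes of both genes lay near the top of the signal range, where a difference may be compressed, so these values do not exclude a larger one. *Cd59a*, a membrane protein that blocks the pore, ran from 13.12 to 14.25 in AAV-GFP and from 14.18 to 14.40 in AAV-Cre, a difference of 0.37 that was 0.12 without AAV-GFP replicate 3, the lowest array. *Cd55*, decay-accelerating factor, was detected in 1 array (AAV-GFP replicate 4), so that its difference of -0.18 is between signals near background.

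In 11 of the 22 members AAV-Cre replicate 2 was the highest of the 8 arrays, where this held for 8.15% of all features. The 11 were *C1s1*, *C4a*, *C4b*, *C4bp*, *C8b*, *C9*, *Cd59a*, *Cfb*, *Cfi*, *Hc* and *Serping1*, and they come from the classical, alternative and terminal branches and the regulators, with none from the lectin pathway. The median deviation of the members from their own means was 0.31 in that array and between -0.15 and 0.10 in the other 7. A list of 15 acute phase genes, of which 14 were measured, moved the same way, with a median deviation of 0.53 in AAV-Cre replicate 2 and between -0.29 and 0.19 elsewhere. *Apcs*, serum amyloid P, which is in that list and binds microbes, read 14.73 there and between 12.20 and 13.09 in the other AAV-Cre arrays, while AAV-GFP ran from 12.78 to 14.56. The part of an acute phase difference between samples in the complement values was not tested. Without AAV-Cre replicate 2, 5 members had an unadjusted p under 0.05, *Mbl2*, *C4bp*, *Cfb* and *Masp1* lower and *Fcna* higher, while 13.4% of all features did, and none passed after adjustment.

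AAV-Cre replicates 3 and 4 both lay below the other 6 arrays in *C4bp*, *C8a*, *Cfb* and *Mbl2*, 4 of 22 members, where this held for 12.3% of all features. Both lay above the other 6 in 0 of 22 members, against 16.7% of all features. AAV-GFP replicates 1 and 4 both lay below the other 6 in *C2*, *C6*, *C8b*, *C9* and *Masp2*, 5 of 22 members against 6.67% of all features. They lay above the other 6 in *Mbl2*, 1 of 22 members against 4.11% of all features. These patterns were chosen after the values had been seen and are given as counts. The map of deviations shows these arrays side by side.

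**Figure D4:**
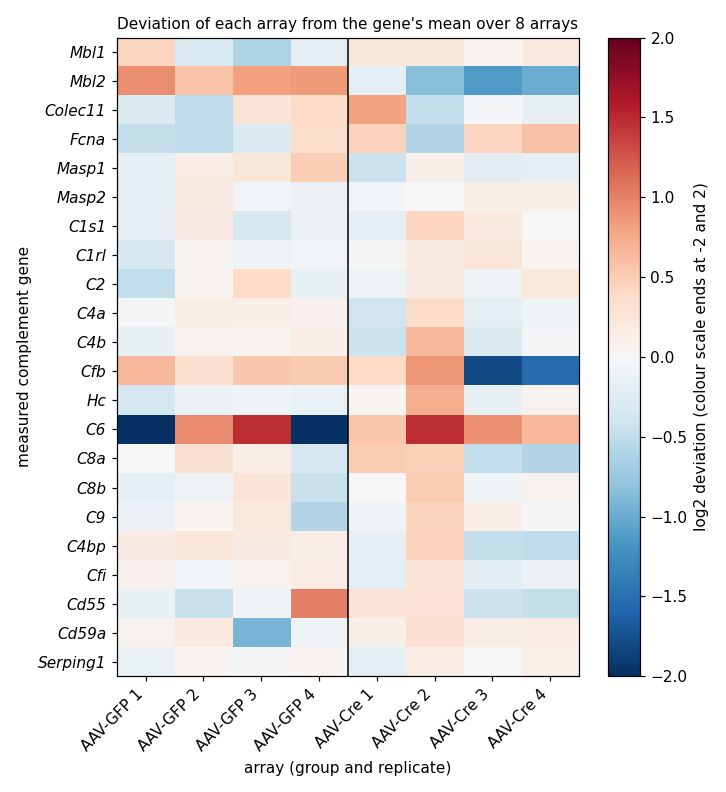
Log2 deviation of each array (columns, 4 AAV-GFP then 4 AAV-Cre) from the mean of each measured complement gene over 8 arrays (rows, by branch), red above and blue below that mean, with the colour scale ending at -2 and 2. The row of *Mbl2* divides at the line between the groups, that of *C6* is blue in AAV-GFP replicates 1 and 4, that of *Cfb* is blue in AAV-Cre replicates 3 and 4, and the column of AAV-Cre replicate 2 is red for most rows outside the lectin pathway.

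A list of 28 other complement genes, 17 of them measured, completed the pathway. At an unadjusted p under 0.05, 4 were higher and 0 lower in AAV-Cre, against 4.99% and 4.07% of all features, and 0 passed after adjustment by limma. The 4 were *Susd4*, *C1qb*, *C1qc* and *Vsig4*. *C1qb* and *C1qc*, which with *C1qa* encode the chains of C1q and are made by macrophages, had differences of 1.26 and 0.75, and *C1qa* had 0.53. All 3 were dim, with *C1qa* detected in 1 AAV-GFP array and 3 AAV-Cre arrays, and *C1qb* and *C1qc* not detected in AAV-GFP replicate 2. *C1qb* read 6.71, 6.15, 7.53 and 7.44 across AAV-GFP replicates 1 to 4, against 8.45, 8.49, 7.94 and 8.00 across the AAV-Cre replicates, so that the groups did not overlap after normalization. In the deposited signal they did, as AAV-Cre replicate 4 read 437 and AAV-GFP replicates 3 and 4 read 474 and 469. *Vsig4*, a macrophage receptor for C3b, differed by 0.60. *C1qa*, *C1qb*, *C1qc* and *Vsig4* belong to the macrophage marker list whose summed signal is given above beside *Fcna*, and the part of macrophage or endothelial RNA in their values was not tested.

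*Susd4*, which encodes a membrane protein with complement control domains, had the largest difference of the 17. It read 7.33, 10.22, 8.78 and 7.74 across AAV-GFP replicates 1 to 4, against 9.82, 10.40, 10.45 and 11.03 across the AAV-Cre replicates, with an overlap through AAV-GFP replicate 2. Its difference of 1.91 (limma adjusted p = 0.535) was 0.93 without AAV-GFP replicates 1 and 4. *Cfhr2*, a factor H-related gene, read 11.36 and 11.39 in AAV-Cre replicates 1 and 2 and 9.45 and 8.84 in replicates 3 and 4, with 10.61 to 11.88 in AAV-GFP and a difference of -0.91 that was 0.20 without AAV-Cre replicates 3 and 4. *Cpn2*, the non-catalytic subunit of the carboxypeptidase that inactivates anaphylatoxins, had the same order, with 12.36 and 12.14 in those 2 arrays and 13.21 to 13.69 in the other 6, and its difference of -0.52 was 0.08 without them, while the catalytic subunit *Cpn1* differed by -0.15. *Crp* differed by -0.27, *Apcs* by -0.70 (0.14 without AAV-Cre replicates 3 and 4), *Fcnb* by -0.34 and *Cd59b* by -0.14. *Fcnb* was detected in 1 array (AAV-GFP replicate 4), so that its difference is between signals near background. The remaining genes were higher on average, *Cfp* (properdin, which steadies the alternative enzyme) by 0.20, *Cr1l* by 0.14, *Cd93* by 0.43, *Colec12* by 0.49 and *C1qbp* by 0.20, the last with all AAV-Cre arrays (12.39 to 12.57) above all AAV-GFP arrays (12.06 to 12.38). The deposited signal of *C1qbp* overlapped, at 4734 to 6790 in AAV-GFP and 4653 to 6103 in AAV-Cre. After normalization 2 of the 17 genes (*C1qb* and *C1qbp*) had no overlap, both higher in AAV-Cre, where this held for 3.10% of all features.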

How the data were processed

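Total RNA of hepatocytes from 4 AAV-Cre and 4 AAV-GFP samples was biotin-labelled and hybridised by the authors to Illumina MouseWG-6 v2 bead arrays and read out with GenomeStudio, for which no version is stated in these sources. In the table deposited without normalization the values are linear intensity of 45281 probes, not background-subtracted, each with a deposited detection p-value. The authors' value table holds quantile-normalized intensity for 16820 probes and served as an alternative. It equalled a quantile normalization of the other table within 0.0389 on the log2 scale, was linear and uncentred, and its medians lay between 708.1 and 709.1.

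Intensities were background-corrected by normexp through the detection p-values (offset 16), then quantile normalization and log2 followed, the steps of neqc (limma 3.58.1, R 4.3.3). The filter on detection kept 19618 probes. For a gene with several, the probe of highest mean over the arrays stood for it, with gene names taken from the platform annotation of the value table's probes, and lmFit and eBayes compared the groups without covariates. Of the measured genes 10 had several detected probes, and 4 of these (*C4a*, *C4b*, *C9* and *Masp2*) had a probe of the opposite sign. The study's methods used SAM, which was not run here. The script was tested on simulated data. The text names every member and every measured gene of the second list. Members, lists, tests and alternatives were chosen with earlier results of these data known. The sample titles number the 8 samples continuously across both groups and so match no AAV-Cre sample to an AAV-GFP sample. Replicate numbers here follow that order within each group. Whether they pair the samples is not known here, and the main test treated the samples as unpaired. Promoter sequences come from RefSeq. Figures were drawn with matplotlib 3.10.9.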

Additional observations from a re-analysis of the deposited data

Results flagged for a closer look

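In 44 groups of 4 values (22 members in each vector group), 3 held an array whose gap to its nearest neighbour was unusually large for the range of its group, and chance alone marks about 1 in 20 such groups. *Fcna* in AAV-Cre replicate 2 had a log2 signal of 9.08, with the next array at 10.09. *Hc* in AAV-GFP replicate 1 had 13.89, with the next at 14.12. *Cd59a* in AAV-Cre replicate 2 had 14.40, with the next at 14.21.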

How the results depend on the processing

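The count of members past an adjusted p of 0.25 was 0 and became 1, *Mbl2*, without background correction (-1.57), with an offset of 50 (-1.59), after cyclic loess normalization (-1.64), after scaling to the 75th percentile (-1.59), in the authors' value table (-1.56), with detection required in a whole group (-1.59), with array weights (-1.60) and with a trend and robust prior (-1.59). With 1 array left out the count ran from 0 to 1 and the *Mbl2* difference from -1.78 to -1.47. The count was 0 at an adjusted p of 0.05. The count of members at an unadjusted p under 0.05 was 1. It was 2 when every probe was tested and the probe of lowest p stood for each gene, which added *Masp1* through its dim probe. It was also 2 on leaving out either AAV-GFP replicates 1 and 4 or AAV-Cre replicates 3 and 4, and ran from 1 to 5 with 1 array left out. Members without overlap numbered 1, then 2 with every probe tested, 3 on leaving out either of those pairs of arrays, and from 1 to 6 with 1 array left out, where fewer arrays make separation easier. Of the other complement genes 4 passed an unadjusted p under 0.05 (9.06% of all features). After cyclic loess normalization 2 did (8.34% of all features), with the replicate block 2 (10.1%), and with 1 array left out 2 to 4. The replicate block changed no other call. Same-numbered arrays of the groups deviated with correlations of 0.19, 0.065, 0.024 and 0.12, and arrays of unlike number with -0.26 to 0.31. These values do not settle whether the numbers pair the samples.

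No member but *Mbl2* passed after adjustment in any alternative, and the sign turned in some. Without AAV-GFP replicates 1 and 4 the differences were -0.18 for *C2*, -0.31 for *C6*, -0.0025 for *C9*, -0.019 for *Masp2* and 0.15 for *Cd55*. Without AAV-Cre replicates 3 and 4 they were 0.083 for *C4b*, 0.47 for *C8a*, 0.19 for *Cd55*, 0.13 for *Cfb* and -0.0047 for *Serping1*. *C4b* was 0.36 when every probe was tested, because a dimmer probe of lower p then stood for the gene. *Colec11* was -0.069 after cyclic loess and -0.017 after scaling to the 75th percentile. With 1 array left out *C2* ran from -0.054 to 0.25, *C4b* from -0.26 to 0.094, *C8a* from -0.22 to 0.14, *Cd55* from -0.36 to 0.12, *Colec11* from -0.19 to 0.24 and *Serping1* from -0.0012 to 0.10. Apart from the change of probe in *C4b*, the cause of these changes was not tested. Cyclic loess lowered the share of features higher in AAV-Cre at an unadjusted p under 0.05 from 55.1% to 37.5%, and the replicate block to 44.2%.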
